A study of Mus musculus with 4 samples.

Results

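The genes described here encode ion channels of the heart muscle membrane, the connexins that join heart cells electrically, and subunits of the sodium pump. They were taken by name from a list of 29 genes, as the array probes whose RefSeq accession carries a listed symbol, out of 20659 genes named on the array. All 29 had a probe, 39 probes in all, and 28 were among the 22925 features tested; Hcn4 was not, because its probe was not well above background on any array. The hearts were from male mice with a myocardial infarction, made 5 days earlier by tying off a coronary artery, the left anterior descending (LAD). Knock-out mice (KO, VE-Cad-Cre-S1pr1 fl/fl) carry floxed S1pr1 and a Cre recombinase under the promoter of VE-cadherin, a protein of endothelial cells, and were set against wild-type mice (WT), whose labels name no Cre and no floxed allele. S1pr1 encodes a sphingosine 1-phosphate receptor, and the channel genes described here are mostly expressed in heart muscle, in which this Cre is not meant to act. Every animal of both genotypes had been infarcted, and no sham-operated heart is among these arrays.

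Each array carried Cy3-labelled heart RNA, with 2 arrays per genotype, KO replicates 3 and 4 and WT replicates 1 and 3. Whether each array is a heart of its own, and which region of the heart was taken, is not stated in the labels. The p-values therefore reflect the scatter among the 4 arrays alone, some of which may be technical. The arrays lay on 1 slide, KO at positions 2 and 1 and WT at positions 4 and 3, so position and genotype cannot be told apart. A level is a log2 processed signal minus the 75th percentile of the array it came from, and a difference is the KO mean minus the WT mean of such levels. S1pr1 itself was -2.69 and -2.30 in KO, against 0.43 and 0.95 in WT, a difference of -3.19 (SE 0.38, adjusted p 0.740 in limma). WT replicate 1 stood apart from the other arrays. It had 54.3% of probes well above background, where the others had 69.4% to 73.4%, and its lowest signal well above background was -4.39, where theirs lay between -7.08 and -6.50. Its 16 ventricular cardiomyocyte markers averaged 2.28, against 6.19 and 7.02 on the KO arrays and 6.40 on WT replicate 3, and each of the 16 was lowest on it. Differences are therefore given with this array and, where that changes them, without it. For 9 of the 28 tested genes the signal on it was not well above background, and the size of their differences with this array is uncertain. In such bulk RNA, fewer cells of a type and less RNA per cell cannot be told apart.

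The heart beats because charge crosses the cardiomyocyte membrane in a set order. Sodium channels start the action potential, L-type calcium channels sustain it and trigger contraction, and potassium channels end it and hold the resting voltage. Pacemaker channels drive spontaneous firing, connexins pass the current from cell to cell, and the sodium pump restores the ion gradients. In the mouse ventricle, transient outward and ultrarapid potassium currents carry most of the repolarisation, and lower levels of several of these channels after infarction are a known part of electrical remodelling.

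Most of these genes had a higher mean in KO hearts, and the widest gaps lay between WT replicate 1 and the other arrays. Of the 28 tested genes, 25 had a higher and 3 a lower mean in KO, where 54.8% of all features had a higher mean in KO. Their median difference was 1.54, against 0.07 over all features tested. No gene of the list passed the test: limma called 0 of them, and 0% of all features, at an adjusted p under 0.05, and the smallest adjusted p in the list was 0.740. At an unadjusted p under 0.05 there were also 0 of the 28, against 2.76% of all features in either direction and 1.41% higher in KO. An exact permutation test of 2 against 2 arrays cannot give a p below 0.333.

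**Figure D1:**
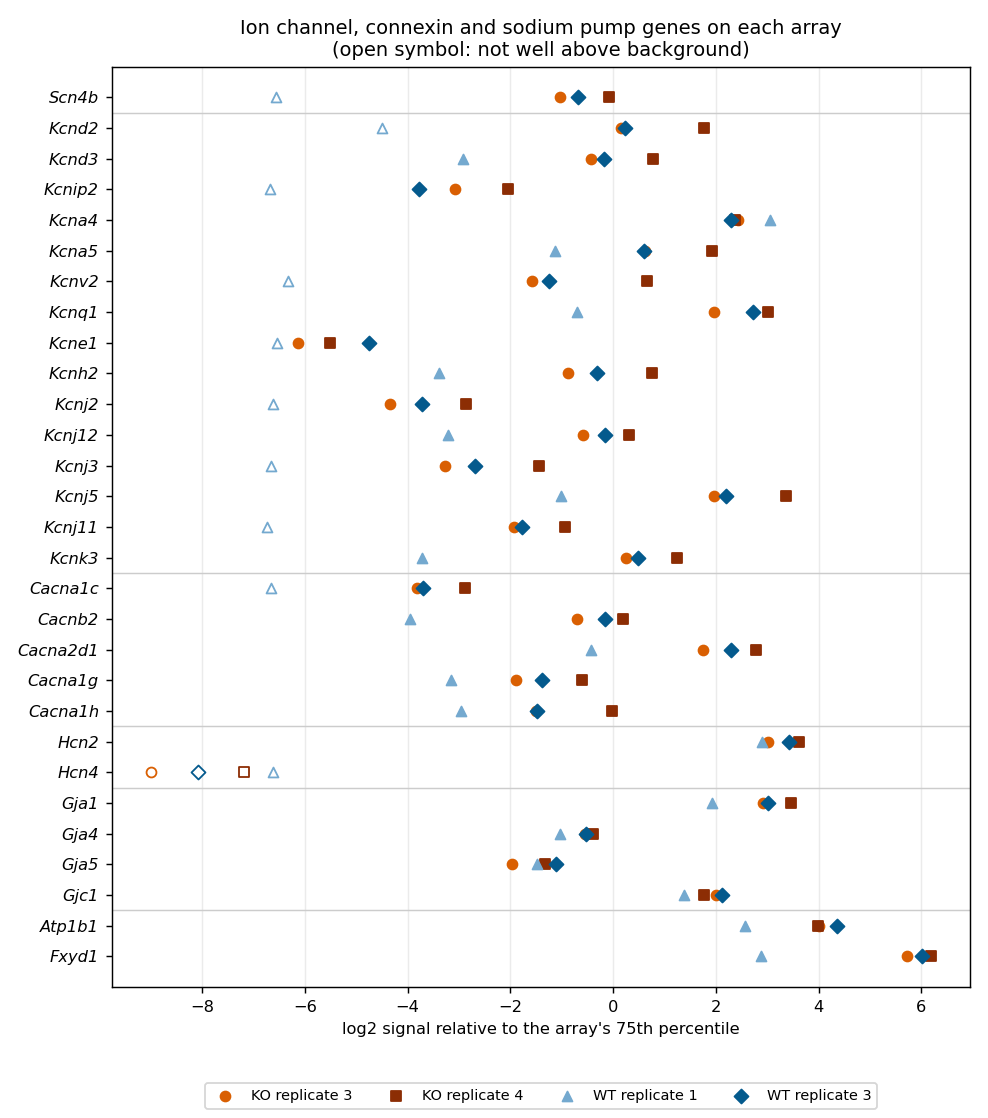
Log2 level of each of the 29 genes (rows, by class) on the 2 KO arrays and the 2 WT arrays, relative to the 75th percentile of the array, with open symbols where the probe was not well above background. WT replicate 1 (light triangles) lies to the left of the other arrays for most channel genes, while Kcna4 is highest there.

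Over the arrays, 26 of the 28 tested genes were lowest on WT replicate 1, as were 41.7% of all features, and 23 were highest on KO replicate 4, as were 45.9%. The 26 include Kcne1, whose place on WT replicate 1 cannot be resolved because its levels lie under that array's limit. For 21 genes the order from low to high was WT replicate 1, KO replicate 3, WT replicate 3 and KO replicate 4, an order that 22.3% of all features had. WT replicate 3 thus lay between the KO arrays for most of the list: KO replicate 3 was below it for 25 genes (54.5% of features) and KO replicate 4 above it for 24 (62.2%). The genotypes did not overlap for only 2 genes, Kcnip2 and Kcna5, both higher in KO, where 18.3% of all features had both KO arrays above both WT arrays. For 0 genes both KO arrays lay below both WT arrays, against 16.1% of all features. Without WT replicate 1, 19 genes had a higher and 9 a lower mean in KO, with a median of 0.13, where 57.5% of all features were higher.

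**Figure D2:**
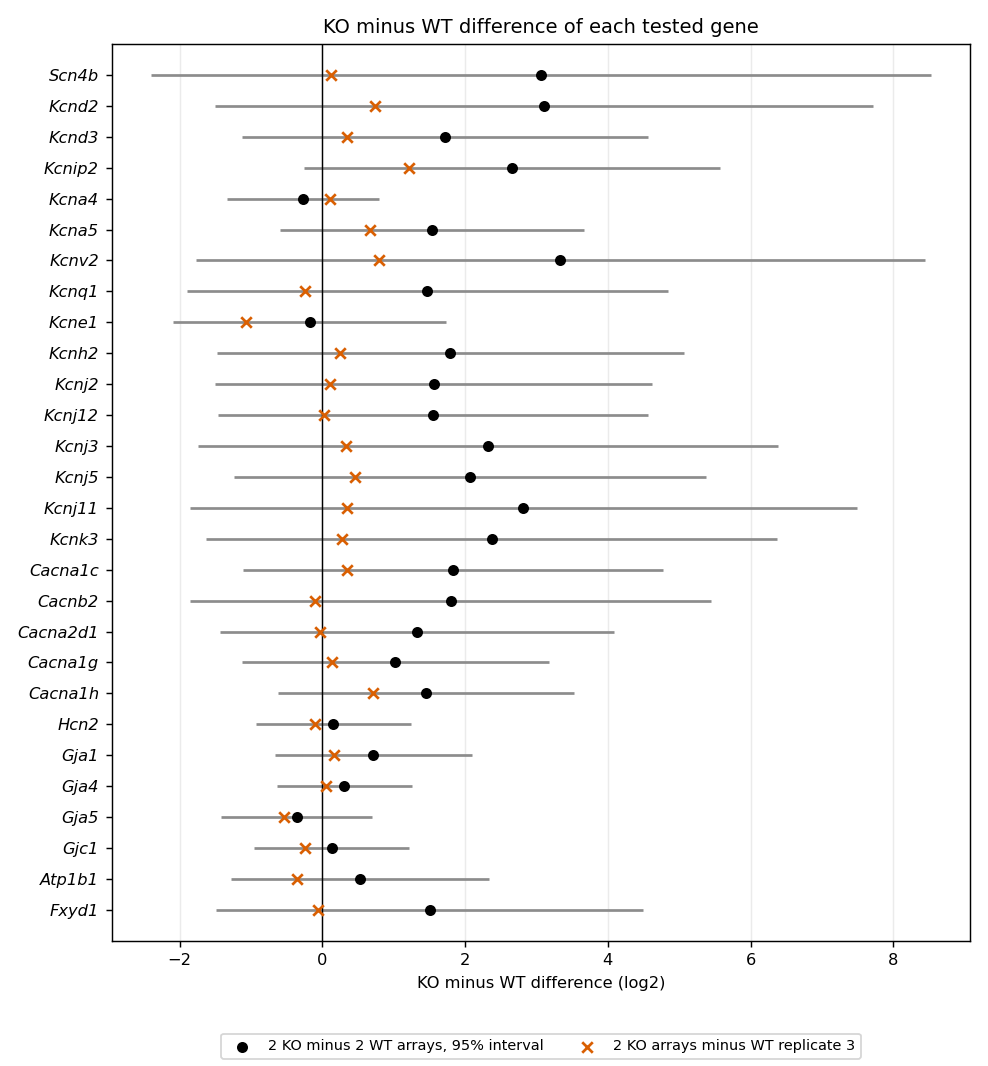
KO minus WT difference of each of the 28 tested genes on the log2 scale, with the 95% interval of the fit (black points and bars) and, as crosses, the mean of the KO arrays minus WT replicate 3 alone. Every interval includes 0, and the crosses lie near 0 for most genes whose black point lies above 1.

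The genes differed widely in how far they moved over the 4 arrays. To show the starts of genes at both ends, the 250 bases before the RefSeq start are printed for the genes with the widest and the narrowest range among those well above background on all 4 arrays with 1 promoter entry (21 of the 29 genes have an entry, 2 of them several). These are Kcnj5 with a range of 4.38, Kcnh2 with 4.14 and Kcnd3 with 3.69, then Kcna4 with 0.76, Hcn2 with 0.71 and Gja4 with 0.65 on the log2 scale. The windows are, in the same order, chr9:32344345-32344594 on the minus strand, chr5:24329592-24329841 on the minus strand, chr3:105451640-105451889 on the plus strand, chr2:107290339-107290588 on the plus strand, chr10:79716384-79716633 on the plus strand and chr4:127314040-127314289 on the minus strand, in RefSeq's GRCm38.p6. Capitals mark matches, on either strand, to GATAA (bound by GATA factors), AAGGTCA (bound by some nuclear receptors), AGGTGT (T-box), CAGCTG (an E-box), or the MEF2 or CArG box; no match shown overlaps another.
Kcnj5: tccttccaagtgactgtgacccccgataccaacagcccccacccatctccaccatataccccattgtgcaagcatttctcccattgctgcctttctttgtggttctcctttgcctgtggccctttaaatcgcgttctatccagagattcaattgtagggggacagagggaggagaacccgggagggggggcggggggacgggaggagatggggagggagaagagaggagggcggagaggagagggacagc
Kcnh2: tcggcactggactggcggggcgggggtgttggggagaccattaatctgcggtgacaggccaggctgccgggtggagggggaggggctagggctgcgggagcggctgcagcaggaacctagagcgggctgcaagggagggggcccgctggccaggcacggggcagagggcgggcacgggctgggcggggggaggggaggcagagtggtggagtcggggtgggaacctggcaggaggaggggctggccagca
Kcnd3: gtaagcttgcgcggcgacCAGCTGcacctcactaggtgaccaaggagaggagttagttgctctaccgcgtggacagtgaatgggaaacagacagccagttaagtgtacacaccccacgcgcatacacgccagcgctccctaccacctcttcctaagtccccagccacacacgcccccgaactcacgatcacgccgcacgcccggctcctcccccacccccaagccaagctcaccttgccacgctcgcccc
Kcna4: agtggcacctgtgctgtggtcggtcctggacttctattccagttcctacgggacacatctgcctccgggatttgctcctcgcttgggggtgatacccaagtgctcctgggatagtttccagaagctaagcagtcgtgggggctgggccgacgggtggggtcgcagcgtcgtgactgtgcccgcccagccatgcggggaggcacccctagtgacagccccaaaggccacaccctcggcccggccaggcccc
Hcn2: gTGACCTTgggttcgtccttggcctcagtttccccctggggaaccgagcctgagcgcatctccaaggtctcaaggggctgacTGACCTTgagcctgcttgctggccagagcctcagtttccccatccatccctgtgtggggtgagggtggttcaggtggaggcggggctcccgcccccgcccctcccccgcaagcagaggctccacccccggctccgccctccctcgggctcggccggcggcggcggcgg
Gja4: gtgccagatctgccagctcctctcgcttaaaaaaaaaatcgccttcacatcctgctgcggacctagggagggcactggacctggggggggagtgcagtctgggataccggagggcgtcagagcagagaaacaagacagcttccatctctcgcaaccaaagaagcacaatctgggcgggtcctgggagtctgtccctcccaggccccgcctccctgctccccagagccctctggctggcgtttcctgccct
Kcnd3 holds 1 CAGCTG, Hcn2 holds 2 AAGGTCA matches, both on the opposite strand, and the other 4 windows hold none of the motifs. Over all 21 genes with an entry, CAGCTG was found for 4, GATAA for 2, AGGTGT for 2 and AAGGTCA for 1, and the MEF2 and CArG boxes for 0. Of 32851 promoter windows of this length, 13.0% hold CAGCTG, 22.6% GATAA, 11.8% AGGTGT, 4.08% AAGGTCA, 0.508% the MEF2 box and 1.47% the CArG box. The G and C content of the printed windows was 58.0% for Kcnj5, 73.6% for Kcnh2, 62.8% for Kcnd3, 65.2% for Kcna4, 70.4% for Hcn2 and 61.2% for Gja4, all above the median of 52.4% over all windows. The wide and the narrow genes overlap in this content.

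The sodium channel is represented by Scn4b, an auxiliary beta subunit that shapes how the pore opens again after inactivation. Its level was -1.03 and -0.09 in KO, against -6.56 and -0.69 in WT. The lowest of these, on WT replicate 1, was not well above background, so that array gives only a bound, and WT replicate 3 exceeded that array's limit by 3.70. The genotypes overlapped, since KO replicate 3 lay below WT replicate 3. The difference was 3.06 (95% interval -2.41 to 8.53) and, without WT replicate 1, 0.13.

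The transient outward potassium channel, which makes the early notch of repolarisation, showed wide gaps between arrays for 3 of its 4 genes. Kcnd2, a pore subunit of its fast form, was 0.16 and 1.78 in KO, against -4.50 and 0.23 in WT, with a difference of 3.10 (95% interval -1.51 to 7.72), or 0.74 without WT replicate 1. WT replicate 1 was again not well above background, WT replicate 3 lay 4.62 above that array's limit, and KO replicate 3 was just below WT replicate 3. Kcnd3, a related pore subunit that was well above background on all 4 arrays, was -0.43 and 0.77 in KO, against -2.92 and -0.17 in WT, a difference of 1.72 (SE 1.06), or 0.34 without WT replicate 1. Its dimmer probe was above background on the KO arrays only, at levels under the limit of WT replicate 1, so no difference is given for it. Kcnip2 encodes the calcium-binding subunit that brings these pores to the membrane and is needed for the fast current in the mouse ventricle. It was -3.08 and -2.04 in KO, against -6.67 and -3.77 in WT, so both KO arrays were above both WT arrays. Its difference was 2.66 (SE 1.09, 95% interval -0.26 to 5.58), with the smallest unadjusted p of the list in limma, 0.0652, and an adjusted p of 0.740. Without WT replicate 1 it was 1.21, the only gene of the list still at least 2-fold higher.

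Kcna4, the pore of the slow transient outward current, ran the other way over the arrays. It was 2.42 and 2.37 in KO, against 3.05 and 2.29 in WT, well above background on all 4 arrays. Of the tested genes, Kcna4 alone was highest on WT replicate 1, as were 39.0% of all features, and the other arrays lay within 0.14 of each other. The difference was -0.27 (SE 0.40), and 0.11 without that array. Between the WT arrays the fast-current genes and Kcna4 therefore had opposite signs: WT replicate 3 minus WT replicate 1 was 4.73 for Kcnd2, 2.75 for Kcnd3 and 2.90 for Kcnip2, and -0.76 for Kcna4. For Kcnd2 and Kcnip2 the signal on WT replicate 1 was not well above background, so the size of their gap is uncertain.

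Kcna5, the pore of the ultrarapid delayed rectifier, was 0.62 and 1.93 in KO, against -1.13 and 0.60 in WT. The genotypes did not overlap, though KO replicate 3 was barely above WT replicate 3. Its difference was 1.54 (SE 0.79, 95% interval -0.60 to 3.67), or 0.67 without WT replicate 1, and its other probe differed by 1.09. Kcnv2 encodes a subunit that forms no channel alone and modifies the channels it joins. It was -1.58 and 0.67 in KO, against -6.33 and -1.26 in WT, a difference of 3.34 (SE 1.90), or 0.80 without WT replicate 1. On this gene WT replicate 1 was not well above background, and the KO arrays lay on either side of WT replicate 3.

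Of the slower delayed rectifiers, Kcnh2 makes the rapid component and Kcnq1, with its small partner Kcne1, the slow one. Kcnh2 was -0.87 and 0.75 in KO, against -3.40 and -0.31 in WT (difference 1.79, SE 1.22). Kcnq1 was 1.95 and 3.01 in KO, against -0.71 and 2.73 in WT (difference 1.47, SE 1.25). Both were well above background on all 4 arrays and overlapped between genotypes, and without WT replicate 1 Kcnh2 differed by 0.25 and Kcnq1 by -0.24. Kcne1 parted from Kcnq1 in that KO replicate 4 lay below WT replicate 3. It was -6.13 and -5.51 in KO, against -6.54 and -4.75 in WT, highest on WT replicate 3 and dim throughout. WT replicate 1 cannot place it, since all its values lie under that array's limit of -4.39. Its difference was -0.18 (SE 0.71), and -1.07 without WT replicate 1, the only difference of at least 2-fold downward in the list without that array.

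The inward rectifiers hold the resting voltage. Kcnj12 was -0.59 and 0.31 in KO, against -3.22 and -0.16 in WT, and its difference of 1.55 (SE 1.12) was 0.02 without WT replicate 1. Kcnj2, the main pore of the ventricular current, was -4.35 and -2.87 in KO, against -6.62 and -3.72 in WT (difference 1.56, SE 1.14, and 0.11 without WT replicate 1). It was not well above background on WT replicate 1, and KO replicate 3 lay only 0.04 above that array's limit. Kcnj3 and Kcnj5 together form the channel that acetylcholine opens in atrium and node. Kcnj5 was 1.96 and 3.36 in KO, against -1.02 and 2.21 in WT (difference 2.07, SE 1.23, and 0.45 without WT replicate 1). Kcnj3 was -3.28 and -1.43 in KO, against -6.67 and -2.69 in WT (difference 2.32, SE 1.51, and 0.33 without WT replicate 1), and was not well above background on WT replicate 1. Both had the order of the other channels over the arrays. The 8 atrial markers did not follow it: they averaged 0.08 and -0.30 on the KO arrays, against -0.61 and -0.11 on the WT arrays. Of these markers, 4 of the 8 were lowest on WT replicate 1, as were 41.7% of all features.

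Kcnj11 is the pore of the channel that opens when ATP falls. It was -1.94 and -0.94 in KO, against -6.73 and -1.78 in WT, where WT replicate 1 was not well above background (difference 2.82, SE 1.74, and 0.34 without that array). Its dimmer probe, also not well above background on WT replicate 1, differed by 0.45. Abcc9 encodes a regulatory subunit of such channels, also in vessel walls, and its KO arrays lay above its WT arrays. It was 1.62 and 2.55 in KO, against -1.37 and 1.45 in WT (difference 2.05, SE 1.05, and 0.64 without WT replicate 1). Kcnk3 encodes an acid-sensitive leak channel. It was 0.25 and 1.25 in KO, against -3.72 and 0.48 in WT, with a difference of 2.37 (SE 1.49) and 0.27 without WT replicate 1. Among genes well above background on all 4 arrays it had the widest range, 4.96.

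The 15 potassium channel genes as a class had a median level of -0.59 and 0.75 on the KO arrays, against -3.72 and -0.17 on the WT arrays. Of them 13 had a higher and 2 a lower mean in KO, with a median difference of 1.79, or 0.33 without WT replicate 1. WT replicate 1 was lowest for 14 of the 15.

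All 5 calcium channel genes had a higher mean in KO, with a median difference of 1.45, or 0.14 without WT replicate 1, and all 5 were lowest on WT replicate 1 and highest on KO replicate 4. Cacna1c, the pore of the L-type channel, was -3.82 and -2.89 in KO, against -6.67 and -3.70 in WT, where WT replicate 1 was not well above background. Its difference was 1.83 (SE 1.095). The auxiliary subunit Cacnb2, which carries the pore to the membrane, was -0.71 and 0.20 in KO, against -3.96 and -0.15 in WT (difference 1.80, SE 1.36). Cacna2d1, an extracellular auxiliary subunit, was 1.75 and 2.78 in KO, against -0.42 and 2.29 in WT (difference 1.33, SE 1.03). For these 3 genes KO replicate 3 was below WT replicate 3 and KO replicate 4 above it. Without WT replicate 1 they differed by 0.35 for Cacna1c, -0.11 for Cacnb2 and -0.031 for Cacna2d1.

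The T-type channels Cacna1g and Cacna1h open at more negative voltages and are best known in node and in the immature heart. Cacna1g was -1.89 and -0.61 in KO, against -3.16 and -1.39 in WT (difference 1.02, SE 0.80). Cacna1h was -1.51 and -0.03 in KO, against -2.96 and -1.48 in WT (difference 1.45, SE 0.77). For Cacna1h the gap between the KO arrays, 1.48, was about as wide as that between the WT arrays. Without WT replicate 1 Cacna1g differed by 0.14 and Cacna1h by 0.71. The other probes of Cacna1g, Cacna1h, Cacna2d1 and Cacnb2 also had a higher mean in KO. Of these probes, only that of Cacna2d1 was well above background on WT replicate 1. The Cacnb2 probe was -3.21 and -2.22 in KO, on either side of the -2.43 on WT replicate 3.

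The pacemaker genes were Hcn2, the form that the ventricle also makes, and Hcn4, the main form of the sinus node. Hcn2 varied little, at 3.01 and 3.61 in KO, against 2.90 and 3.42 in WT, a difference of 0.15 (SE 0.40, 95% interval -0.94 to 1.24), or -0.10 without WT replicate 1. Its other probe differed by 0.58. Hcn4 was not well above background on any of the 4 arrays, and no value is drawn from it. The 7 conduction system markers tested averaged -1.36 and -0.35 in KO, against -2.53 and -1.24 in WT. Of these 7, 5 were lowest on WT replicate 1, as were 41.7% of all features.

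The 4 connexins had a median gap of 0.64 between WT replicate 3 and WT replicate 1, where the median over all 28 tested genes was 2.90. Gja1, which makes the main gap junctions of ventricular muscle, was 2.92 and 3.47 in KO, against 1.93 and 3.02 in WT, a difference of 0.71 (SE 0.51, 95% interval -0.66 to 2.09) and 0.17 without WT replicate 1. Gjc1, a connexin of the node and early heart, was 1.999 and 1.76 in KO, against 1.37 and 2.13 in WT (difference 0.13, SE 0.40, and -0.25 without WT replicate 1). Gja4 and Gja5 are connexins of arterial endothelium, and Gja5 is also made by atrium and conduction fibres. Gja4 was -0.55 and -0.38 in KO, against -1.03 and -0.52 in WT (difference 0.31, SE 0.35, and 0.053 without WT replicate 1). Gja5 was -1.97 and -1.32 in KO, against -1.47 and -1.10 in WT, the most negative difference of the list at -0.36 (SE 0.39), or -0.54 without WT replicate 1. Its dimmer probe had the opposite sign at 0.26, but all levels of that probe lay under the limit of WT replicate 1. That array therefore cannot place the probe. Gja5 was lowest on KO replicate 3 and, with Kcna4, was 1 of the 2 tested genes that were not lowest on WT replicate 1.

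These endothelial connexins were read beside the cell in which S1pr1 was to be deleted. The 15 endothelial markers averaged 1.98 and 2.17 on the KO arrays, against 1.31 and 1.90 on the WT arrays, and the 8 arterial endothelial markers, which leave out both connexins, -0.42 and -0.23 in KO, against -0.31 and -0.25 in WT. For the endothelial markers both KO means lay above both WT means. All 15 had a higher mean in KO, where 54.8% of all features did. Of the 15, 11 were lowest on WT replicate 1, as were 41.7% of all features. Their median difference was 0.33, or 0.19 without that array. Of the 8 arterial markers 5 had a higher and 3 a lower mean in KO. The genotypes overlapped for Gja4 and Gja5 as they did for the mean of the arterial markers. The 95% intervals, -0.64 to 1.26 for Gja4 and -1.41 to 0.70 for Gja5, give the sizes of difference that these arrays leave possible.

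The sodium pump was represented by Atp1b1, the subunit that carries the pump to the membrane, and by Fxyd1, or phospholemman, which slows the pump until it is phosphorylated. Atp1b1 was 3.9995 and 3.98 in KO, against 2.57 and 4.35 in WT, a difference of 0.53 (SE 0.67). Fxyd1 was 5.72 and 6.19 in KO, against 2.89 and 6.02 in WT, a difference of 1.504 (SE 1.11). Both were lowest on WT replicate 1, and without it their differences were -0.36 for Atp1b1 and -0.063 for Fxyd1.

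**Figure D3:**
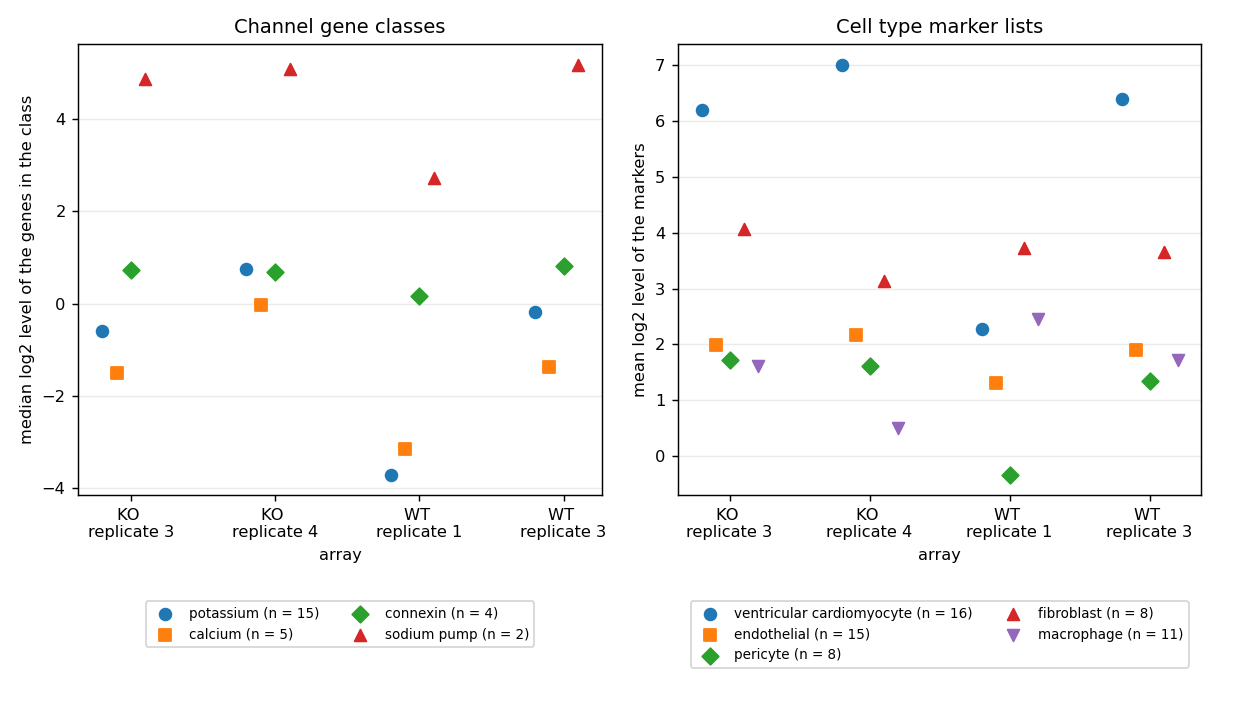
Median log2 level of the potassium channel, calcium channel, connexin and sodium pump genes (left) and mean log2 level of 5 marker lists (right) on each of the 4 arrays. On WT replicate 1 all 4 classes and the cardiomyocyte, endothelial and pericyte markers are lowest, and the macrophage markers are highest.

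Markers of the cell types in these hearts moved over the arrays as well. The 16 cardiomyocyte markers had a median difference of 2.19, or 0.18 without WT replicate 1, and all 16 were well above background on that array. Pericyte markers averaged 1.72 and 1.62 in KO, against -0.34 and 1.35 in WT, with a median difference of 1.44, or 0.30 without that array. Macrophage markers averaged 1.61 and 0.50 in KO, against 2.45 and 1.71 in WT, with 10 of 11 lower in KO and a median difference of -0.47, or -0.0086 without that array. Fibroblast markers averaged 4.08 and 3.14 in KO, against 3.72 and 3.66 in WT, smooth muscle markers 0.49 and 0.17 in KO, against 1.001 and 0.51 in WT, and markers of neurons and Schwann cells -2.57 and -2.29 in KO, against -2.77 and -2.34 in WT. The list means thus split, with cardiomyocyte and pericyte markers lowest, and macrophage and smooth muscle markers highest, on WT replicate 1. The part of cell makeup in the channel genes' values was not tested.

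Set against the mean of the cardiomyocyte markers on the same array, the channel genes had gaps of unequal size. The mean of the markers was 4.12 lower on WT replicate 1 than on WT replicate 3. Single markers varied around it: Actc1 was 6.38 on WT replicate 1 and 7.79 on WT replicate 3, and Ckm -4.00 and 2.66. A gap smaller than that of the mean therefore does not by itself set a gene apart from the markers. Of the 19 genes well above background on all 4 arrays, 18 had a smaller gap between the WT arrays than the marker mean. The other, Kcnk3, had a larger one, at 4.19. The gap was 3.81 for Cacnb2, 3.43 for Kcnq1, 3.23 for Kcnj5 and 3.13 for Fxyd1. It was 1.73 for Kcna5, 1.48 for Cacna1h and 1.09 for Gja1, and under 1 for 5 genes, namely Gjc1, Gja4, Hcn2, Gja5 and Kcna4. The gaps of Gja1 and these 5 genes were smaller than that of Actc1, the smallest among the markers. The gap of Kcna4 had the opposite sign, at -0.76. By measured signal, 23 of the 28 tested genes were at least 2-fold higher on WT replicate 3 than on WT replicate 1, as were 16.0% of all features. Of the 9 genes not well above background on WT replicate 1, 5 lay at least 2-fold above that array's limit on WT replicate 3 and 4 did not, so 19 of the 28 are shown to be that much higher. Between the KO arrays the marker mean was 0.82 higher on KO replicate 4, and 19 of the 28 genes had a gap at least as large. These were led by Kcnv2 with 2.25, Kcnj3 with 1.85, Kcnh2 with 1.62 and Kcnd2 with 1.61.

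**Figure D4:**
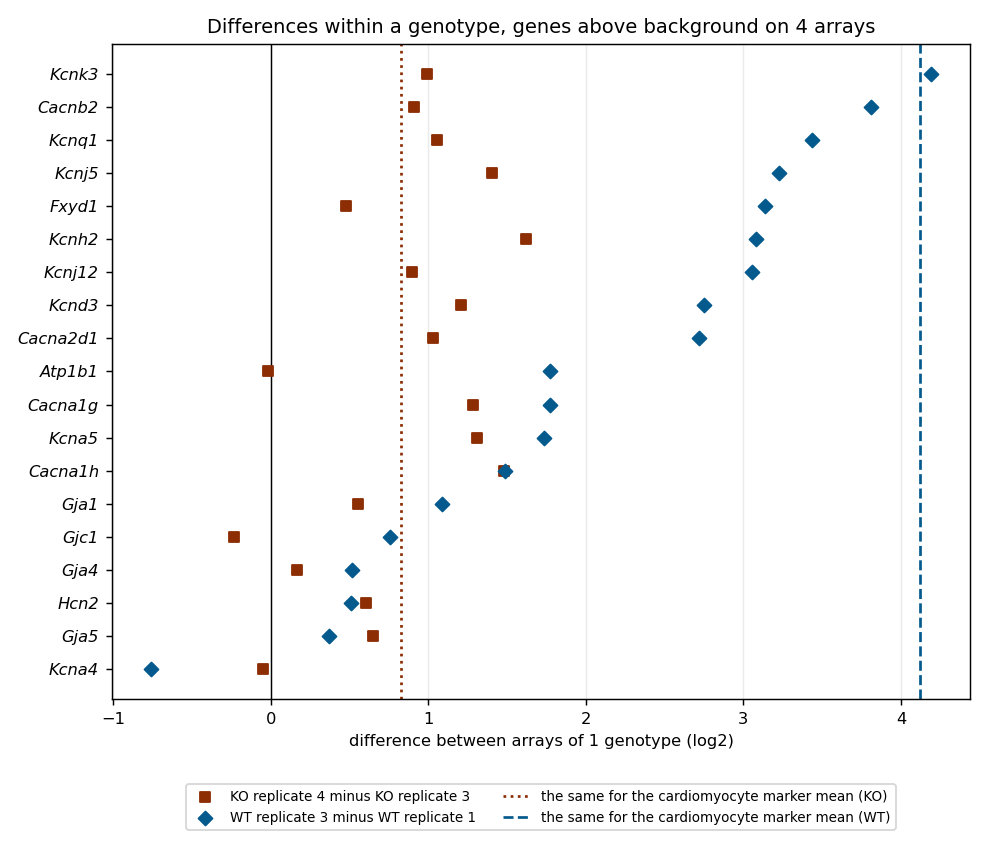
Differences between arrays of the same genotype on the log2 scale, for the 19 genes well above background on all 4 arrays: KO replicate 4 minus KO replicate 3 (squares) and WT replicate 3 minus WT replicate 1 (diamonds), with the same differences of the cardiomyocyte marker mean as vertical lines. All diamonds except that of Kcnk3 lie left of the WT marker line, and the diamond of Kcna4 lies below 0.

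As a ratio to the cardiomyocyte markers of the same array, the tested genes had a median of -6.76 and -6.31 on the KO arrays, against -5.34 and -6.57 on the WT arrays, and a median difference of -0.72, or -0.07 without WT replicate 1. The sign is thus the opposite of that of the levels themselves. The ratio of Kcna4 was -3.77 and -4.65 in KO, against 0.77 and -4.12 in WT, and that of Kcnk3 was -5.94 and -5.77 in KO, against -6.00 and -5.93 in WT, nearly level on all 4 arrays. Such a ratio shows that features changed unequally and not that any of them stayed the same.

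Other genes of cardiac ion transport and its regulators, a list made with earlier results of these data known, also mostly had a higher mean in KO. Of 67 genes, 59 were tested, and 46 had a higher and 13 a lower mean in KO, with a median difference of 0.60 and, without WT replicate 1, 0.08. Limma called 0 of the 59, with 3 at an unadjusted p under 0.05, where 2.76% of all features had such a p. The same 54.8% of all features had a higher mean in KO. Some of these genes are also on the conduction and atrial marker lists. The smallest unadjusted p-values among those higher in KO belonged to Kcnc1, Scn2b and the calcium-activated chloride channel Ano1. Ano1 was above background on 4 arrays, with a difference of 1.25, or 0.85 without WT replicate 1. Scn2b was -4.38 and -4.28 in KO, against -5.19 and -5.33 in WT, and not well above background on WT replicate 1. Its KO levels barely exceeded that array's limit of -4.39. The size of its difference of 0.94 is thus uncertain, and it was 1.01 without that array. Kcnc1 was above background on the KO arrays only, at levels under the limit of WT replicate 1. It passed the filter through the KO arrays alone, so no difference is given for it, though it is counted among the 46 and the 3. Among the genes lower in KO, the smallest unadjusted p-values belonged to Panx1, a large-pore membrane channel (-1.94), Kcne3 (-1.01) and Fxyd5 (-1.30). Without WT replicate 1 they differed by -1.44, -0.66 and -0.90. Each was highest on WT replicate 1, as were 39.0% of all features. Kcnj8, the pore of the ATP-sensitive channel of vessel walls and pericytes, was 0.52 and 0.64 in KO, against -2.59 and -0.40 in WT (difference 2.07, SE 0.80, and 0.98 without WT replicate 1), without overlap, and, like Abcc9, is also on the pericyte list.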

How the data were processed

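RNA from 4 heart samples was measured on 1-colour Agilent arrays. The intensity used is the processed signal of each spot, from which Feature Extraction 11.0.1.1 had removed background and a spatial trend, per the file headers; version 9.1 is named in the submitters' processing notes. Flags for each spot (other values) are the scanner software's, per the file headers. A table of log2 values was also deposited; its quartiles are alike in all columns, and its method is not given in the sources used here.

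Spots of controls and outliers were left out, spots of 1 probe averaged, and the 75th percentile of an array subtracted from its log2 signals. Saturated spots numbered 0. Of 39429 probes, 27234 were named through 1 RefSeq symbol (GRCm38.p6 table) and 12195 kept the array's identifier; the grid names mm9, so gene coordinates are not used. A probe was kept if measured on all 4 arrays and well above background on 2 or more, of either genotype, with the brightest probe per gene. The genotypes were compared with limma 3.58.1 (lmFit, then eBayes, in R 4.3.3). Two-sided p-values were adjusted across all 22925 features by Benjamini and Hochberg's method, with a threshold of 0.05. The fit was also run on simulated data with an equal spread in both genotypes. That run cannot show how the fit behaves here, where 26 of the 28 tested members, and 61.9% of all features, varied more in WT. The members, marker lists and other channel genes were chosen with earlier results of these data known. All 29 members are named, with S1pr1, the 3 other channel genes of smallest p in each direction, and partners of the members, of which Kcnj8 and Abcc9 are given and others are not reported here. The number of arrays limits the precision. Alternatives were other scalings, filters, a floor, normexp with an offset of 50 on median signals (the files hold no mean signal), the deposited table, the mean of probes, eBayes options, an adjusted p under 0.10 and each array left out.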

Additional observations from a re-analysis of the deposited data

How the results depend on the processing

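No paired analysis was possible because the genotypes share only 1 replicate number. The count of features past the threshold was 0 under every alternative, including trend and robust eBayes, an adjusted p under 0.10 and each array left out; the smallest adjusted p in limma lay between 0.132 (without WT replicate 3) and 0.99999 (without KO replicate 4). Among the members, 25 of 28 had a higher mean in KO under quantile and median scaling, the common floor, the deposited table and the mean of probes, and 26 under normexp. All tested members kept their sign under alternatives that use all 4 arrays, except Kcne1, which was 0.23 with normexp and 0 with the common floor. Differences of dim members shrank by over 1.5 times with the common floor, to 1.98 for Scn4b, 1.52 for Kcnip2, 0.45 for Kcnj2, 1.18 for Kcnj3, 1.64 for Kcnj11 and 0.69 for Cacna1c, and with normexp to 1.66, 1.44, 0.71, 1.30, 1.58 and 0.91 for the same genes and 2.03 for Kcnv2. The mean of probes gave 1.08 for Kcnd3, 1.63 for Kcnj11, 0.37 for Hcn2 and -0.05 for Gja5, and median scaling 0.20 for Gja4, 0.02 for Gjc1 and 0.04 for Hcn2. Leaving out 1 array moved the median difference of the members between 0.13 (without WT replicate 1) and 3.07 (without WT replicate 3), the number higher in KO between 19 and 26, the median of the other channel genes between 0.08 and 1.02, and the median ratio to the cardiomyocyte markers between -1.25 and -0.07. Sign changes came mostly without WT replicate 1. The ranges were -0.65 to 0.11 for Kcna4, -0.24 to 3.19 for Kcnq1, -1.07 to 0.72 for Kcne1, -0.11 to 3.70 for Cacnb2, -0.031 to 2.69 for Cacna2d1, -0.15 to 0.45 for Hcn2, -0.25 to 0.51 for Gjc1, -0.36 to 1.42 for Atp1b1 and -0.063 to 3.07 for Fxyd1; the cause was not tested. A lone array of a genotype was assumed to vary like the others. With only probes well above background on all 4 arrays, 17 of 19 members were lowest on WT replicate 1, since fewer genes are tested. The applications to the other channel genes, the ratio, the lowest array and S1pr1 were chosen after seeing the data. Median scaling gave a median of -0.04 over all features, where the 75th percentile gave 0.07. Signal over background limits what WT replicate 1 can show for 9 members.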
